A study of Mus musculus with 15 samples.

Results

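A set of 7 genes of plasma cells, B cells and IgA transport were followed in RNA-seq of mouse distal colon. They were chosen by symbol: Igj (the joining chain, Jchain in current annotation), Mzb1, Derl3 and Xbp1 from the secretory machinery of plasma cells, Cd79a and Cd79b from the B cell receptor, and Pigr, the epithelial receptor for polymeric immunoglobulin. Of the 7 genes, 6 were found among the 12897 genes of the 3 deposited count tables and 5 were found in all 3 tables. Derl3 had no row in any table, so its expression was not analysed here. Mzb1 had no row in the table that holds control set 2, so it had values in 12 of the 15 libraries.

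All 15 libraries came from whole distal colon of mice on the B6 background (C57BL/6 in the labels and C57BL/6J in the study), with 3 libraries in each of 5 groups. Wildtype B6 mice were sampled untreated, in 2 separate sets named control set 1 and control set 2 here, and at day 26 (D26) of 1 AOM/DSS treatment. Mice of the Irf1-/- genotype, in which the gene of a transcription factor of the interferon response is inactivated, were sampled untreated and at D26. Treatment was AOM, an alkylating carcinogen, at 7 mg/kg on day 1, followed by 2% DSS, which injures the colonic epithelium, in drinking water from day 8 to day 11. The labels give neither age nor sex, and they do not say that libraries of a group came from separate animals, so p-values measure the spread between these libraries only. The question was whether B cell, plasma cell and IgA transport transcripts differed by genotype or after treatment, and how far the answer rested on the choice of control set.

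The intestinal lamina propria holds many plasma cells, most of which secrete IgA. In these cells the joining chain links IgA monomers into dimers, while Xbp1, a transcription factor of the unfolded protein response, enlarges the secretory apparatus, and Mzb1, a chaperone of the endoplasmic reticulum, assists antibody assembly and secretion. The epithelium binds dimeric IgA at its basal side through the polymeric immunoglobulin receptor encoded by Pigr, carries it across the cell and releases it into the lumen. Naive and memory B cells, which gather in colonic lymphoid follicles, carry the Cd79a and Cd79b proteins as the signalling part of their antigen receptor.

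The promoters of Pigr and Igj are shown because these genes were the most abundant transcripts of the epithelial and of the plasma cell side. Each sequence is a window of 300 bases, most of it upstream of the annotated start (RefSeq, GRCm38.p6), and capitals mark a CACGTG E-box, the element that USF factors bind. The Pigr promoter lies at chr1:130826434-130826733 on the plus strand and that of Igj at chr5:88527848-88528147 on the minus strand.
Pigr: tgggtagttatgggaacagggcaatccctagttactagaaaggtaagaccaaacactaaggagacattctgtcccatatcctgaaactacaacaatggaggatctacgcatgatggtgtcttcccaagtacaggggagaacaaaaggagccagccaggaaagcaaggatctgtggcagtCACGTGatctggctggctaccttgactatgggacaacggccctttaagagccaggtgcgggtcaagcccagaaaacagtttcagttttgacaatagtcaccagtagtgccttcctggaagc
Igj: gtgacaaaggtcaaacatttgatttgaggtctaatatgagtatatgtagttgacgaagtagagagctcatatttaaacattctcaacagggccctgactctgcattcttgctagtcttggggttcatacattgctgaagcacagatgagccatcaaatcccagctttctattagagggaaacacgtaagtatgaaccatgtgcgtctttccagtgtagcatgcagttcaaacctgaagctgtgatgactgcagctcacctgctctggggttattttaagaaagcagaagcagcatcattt
The E-box of Pigr began 71 bases before the start, and 7.15% of 32851 mouse promoters of this length held such an element. The core of an IRF element (GAAA, 2 unspecified bases and GAAA, in 3.44% of promoters) was not matched in either sequence. The octamer ATTTGCAT (1.74% of promoters), the Ebf1 palindrome (TCCC, 2 unspecified bases and GGGA, 0.904%), the unfolded protein response element TGACGTGG (0.676%) and the endoplasmic reticulum stress element (CCAAT, 9 unspecified bases and CCACG, 0.119%), each searched on both strands, were not matched either. Cd79a and Xbp1 promoters held none of these 6 motifs. The promoter of Derl3, which has no expression values here, held an E-box at -168 and an endoplasmic reticulum stress element at -156 from the start. Only exact matches were counted, so a site that differs from a motif by a base would be missed. Motifs outside these windows were not searched for.

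Library totals over the genes retained in the tables ranged from 22266607 to 22869853 reads. Values below are normalised CPM, read counts scaled by these totals and TMM factors over the 12370 genes in all 3 tables, the factors lying between 0.981 and 1.01. Irf1, the inactivated gene, was counted at 79.2 to 117 normalised CPM in untreated Irf1-/- libraries and at 99.8 to 123.0 in treated ones, below each of the 9 B6 libraries, which ranged from 127.8 to 226.5. Reads on Irf1 therefore remained in mutants, and the tables do not show which exons they cover. Epcam, an epithelial marker, was at 1224 to 1498 normalised CPM, while the defining T cell markers Cd3d, Cd3e and Cd3g were in no table. Libraries of treated B6 mice rose with the GC content of genes, by 0.136 to 0.285 log2 units per 10% GC, whereas the slopes of the other 12 libraries lay between -0.124 and 0.0316. Xist, the transcript of the inactive X chromosome, was at 25.1 and 5.96 normalised CPM in treated B6 replicates 1 and 2 and at 11.6 in treated Irf1-/- replicate 1, against 320.5 to 3723 in the other libraries. These treated libraries are therefore named wherever they change a result.

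Pigr was by far the most abundant of the 6 measured genes. Per kb of its longest transcript it averaged 949 normalised CPM and ranked 22 of 12272 genes. Igj averaged 148.6 per kb (rank 336) and Xbp1, which is also expressed by many epithelial cells, averaged 88.1 per kb (rank 611). Mzb1, Cd79b and Cd79a averaged 7.98, 7.38 and 5.59 per kb. The genes also differed in how much they varied between libraries. The highest library exceeded the lowest 1.43-fold for Pigr and 1.49-fold for Xbp1, 4.11-fold for Igj and 4.69-fold for Mzb1, and 11.5-fold for Cd79a and 10.7-fold for Cd79b.

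**Figure D1:**
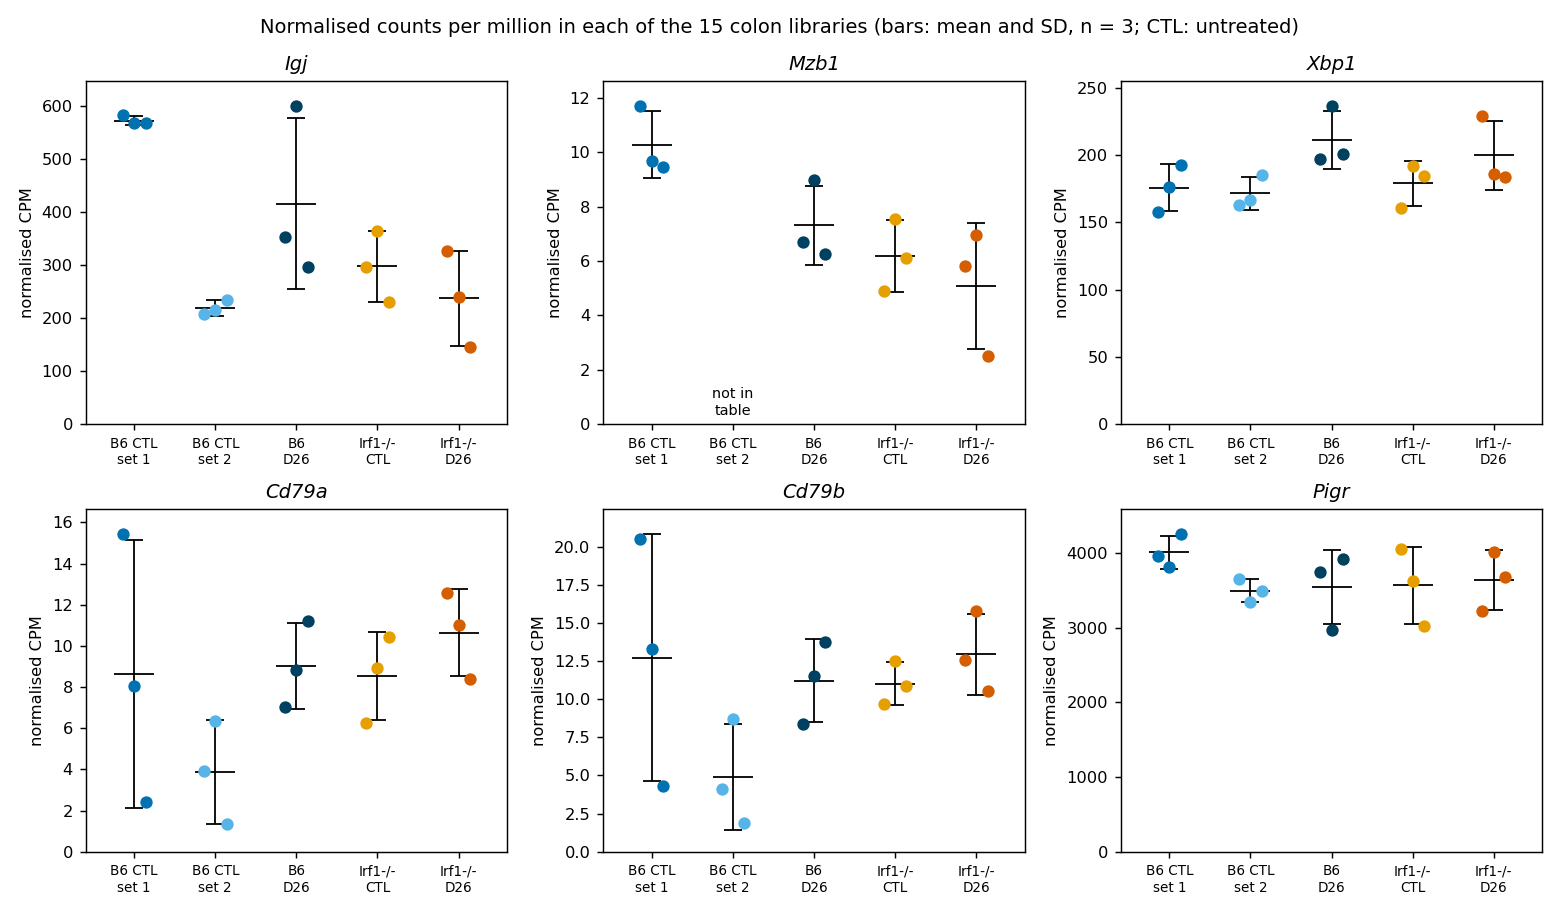
Each panel plots normalised CPM of 1 gene (linear axis from 0) in the 15 colon libraries by group, with points for libraries and bars for the mean and SD of 3. Igj lay between 566.5 and 582 in control set 1 and between 206.4 and 234.6 in control set 2, while Pigr stayed between 2977 and 4255 in every library, and Mzb1 has no values in control set 2.

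Untreated B6 mice were represented by separate control sets, and the estimated difference in Igj was larger between them than between genotypes or after treatment. In control set 1 it was at 582, 566.8 and 566.5 normalised CPM, and in control set 2 at 206.4, 214.2 and 234.6. The sets did not overlap and each was narrow, with means of 571.8 ± 8.85 and 218.4 ± 14.5 (SD, n = 3). The log2 fold change of set 2 over set 1 was -1.39 ± 0.08 (SE, adjusted p = 7.44e-05, edgeR), a level 2.62-fold lower in set 2. Tests were edgeR quasi-likelihood fits with Benjamini-Hochberg adjustment over all genes of a comparison, and a gene was called when its fold change reached 1.5 and its adjusted p fell below 0.01, the study's thresholds. At these limits the study's own test called more genes, both at steady state and in each response. Igj had the smallest p of the 12417 genes tested between the control sets and was the only 1 of 5 members called, where 0.0644% of all genes were called, 0.0403% as lower. The call held with each library left out in turn (adjusted p from 0.000232 to 0.00227, edgeR). With all 15 libraries in 1 fit, which takes the spread from all groups, the log2 fold change was again -1.39 with an adjusted p of 0.0322 (edgeR), past the limit. In a whole tissue, fewer plasma cells and less Igj RNA per plasma cell cannot be told apart, and this holds for each gene below.

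Pigr, Cd79b and Cd79a also had lower estimates in set 2, without passing the test, while Xbp1 hardly differed. Pigr was at 3968, 3810 and 4255 normalised CPM in set 1 and at 3658, 3344 and 3488 in set 2. These sets did not overlap, but the log2 fold change was only -0.20 ± 0.10 (SE, adjusted p = 0.339, edgeR). Igj and Pigr were thus the 2 of 5 members without overlap, where 21.4% of all genes showed none. Log2 fold changes were -1.37 ± 0.55 for Cd79b, -1.15 ± 0.60 for Cd79a and -0.03 ± 0.09 for Xbp1.

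The comparison of genotypes depended on which control set was used. Igj was at 296.3, 364.3 and 230.4 normalised CPM in untreated Irf1-/- mutants, below all of control set 1 and, except for 1 library that lay within the range of set 2, above all of control set 2. Against control set 2, with which the mutants share a table, the log2 fold change was 0.44 ± 0.14 (SE, adjusted p = 0.243, edgeR) and no call was made. Against control set 1 it was -0.95 ± 0.13 (adjusted p = 0.00308, edgeR), a called decrease. The sign of the genotype difference in Igj therefore depended on the control set, and with both sets together it was -0.41 ± 0.37. The called decrease was lost without control set 1 replicate 3 (adjusted p = 0.0106, edgeR) or without untreated Irf1-/- replicate 1 (adjusted p = 0.0170, edgeR).

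At steady state, 0 of 5 members were called in mutants against control set 2 by edgeR (0.405% of all genes were) and 0 by DESeq2 (107 of 12588 genes). At an unadjusted p under 0.05 were 3 members, against 1313 of 12588 genes. Libraries of 1 of 5 members, Cd79b, did not overlap, against 15.4% of all genes (7.86% higher). Against control set 1, 1 of 6 members was called (1.07% of all genes, 0.758% as lower), and libraries of Igj and Mzb1, 2 of 6, did not overlap (25.6% of all genes). Cd79b and Cd79a showed the largest estimates against set 2, with log2 fold changes of 1.17 ± 0.39 (adjusted p = 0.278, edgeR) and 1.14 ± 0.40 (adjusted p = 0.322, edgeR). Against set 1 these estimates were -0.21 ± 0.40 and -0.02 ± 0.47.

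**Figure D2:**
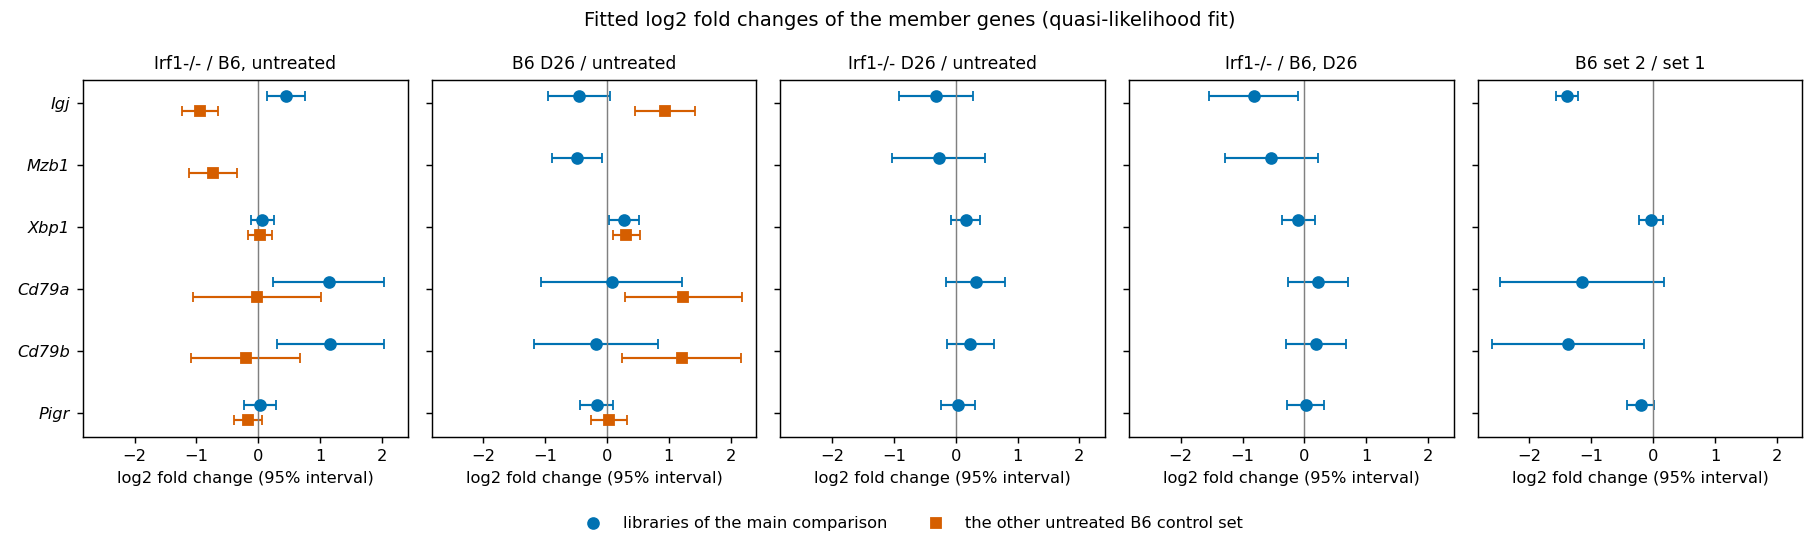
Log2 fold changes (x axis) of the 6 measured genes (y axis) in 5 comparisons, with 95% intervals from the quasi-likelihood fit. Circles use the main libraries and squares replace the untreated B6 mice by the other control set, which moved Igj from 0.44 to -0.95 between genotypes and from -0.45 to 0.94 after treatment of B6 mice.

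After AOM/DSS, Igj in B6 mice was at 351.6, 598.4 and 295.6 normalised CPM. Replicate 2 was the highest library of all 15, while the other replicates lay between the control sets. Against control set 1 the log2 fold change was -0.45 ± 0.22 (SE, adjusted p = 0.205, edgeR), and against control set 2 it was 0.94 ± 0.22 (adjusted p = 0.0258, edgeR). Neither difference was called, and the signs were opposite. After a GC correction the estimate against set 1 was -0.12 ± 0.18. Without treated replicate 2 the decrease against set 1 was -0.81 ± 0.10 and called (adjusted p = 0.00919, edgeR), and without both treated B6 libraries low in Xist, which leaves 1 treated library whose spread is assumed to equal that of the controls, it was -0.94 ± 0.11 and called (adjusted p = 0.00641, edgeR). Among the settings tried, a decrease in B6 mice was thus called only where treated replicate 2 was left out.

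In Irf1-/- mutants at D26, Igj was at 325.3, 239.7 and 145.5 normalised CPM, which overlapped the untreated mutants. The log2 fold change of the response was -0.32 ± 0.26 (SE, adjusted p = 0.580, edgeR). Treated mutants averaged 236.8 ± 89.9 and treated B6 mice 415.2 ± 161 (SD, n = 3), with 1 mutant library above 1 B6 library. The log2 fold change of treated mutants over treated B6 mice was -0.82 ± 0.32 (adjusted p = 0.180, edgeR), with a 95% interval from -1.54 to -0.11 before adjustment. In all 16 alternative settings the estimate was below 0 (-1.17 to -0.46), and the smallest adjusted p was 0.0506 (edgeR). None of these settings separates genotype from a difference between sets of libraries, such as the -1.39 in Igj between the control sets. The 2 cannot be told apart here, for Igj or for any gene compared between treated genotypes below. Igj thus had the largest estimate among the members in this comparison without reaching the threshold. In the order of group means, control set 1 was followed by treated B6, untreated Irf1-/-, treated Irf1-/- and control set 2, and each neighbouring pair overlapped.

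Mzb1 had the same order of groups as Igj where it was measured. It was at 11.7, 9.68 and 9.48 normalised CPM in control set 1, at 6.71, 8.98 and 6.24 in treated B6 mice, at 4.88, 7.55 and 6.12 in untreated Irf1-/- mutants, and at 5.81, 6.97 and 2.49 in treated mutants. Each of the other 9 libraries lay below control set 1. The log2 fold change was -0.48 ± 0.18 for treated B6 mice (SE, adjusted p = 0.115, edgeR) and -0.73 ± 0.18 for untreated mutants against control set 1 (adjusted p = 0.0393, edgeR), neither of which was called. Treated mutants over treated B6 mice gave -0.54 ± 0.33 (adjusted p = 0.366, edgeR). Because 2 of 3 untreated mutant libraries reached 5 CPM, the authors' filter of 5 CPM in at least 3 libraries would have kept Mzb1 in the table with control set 2 had a single library of that set reached it.

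**Figure D3:**
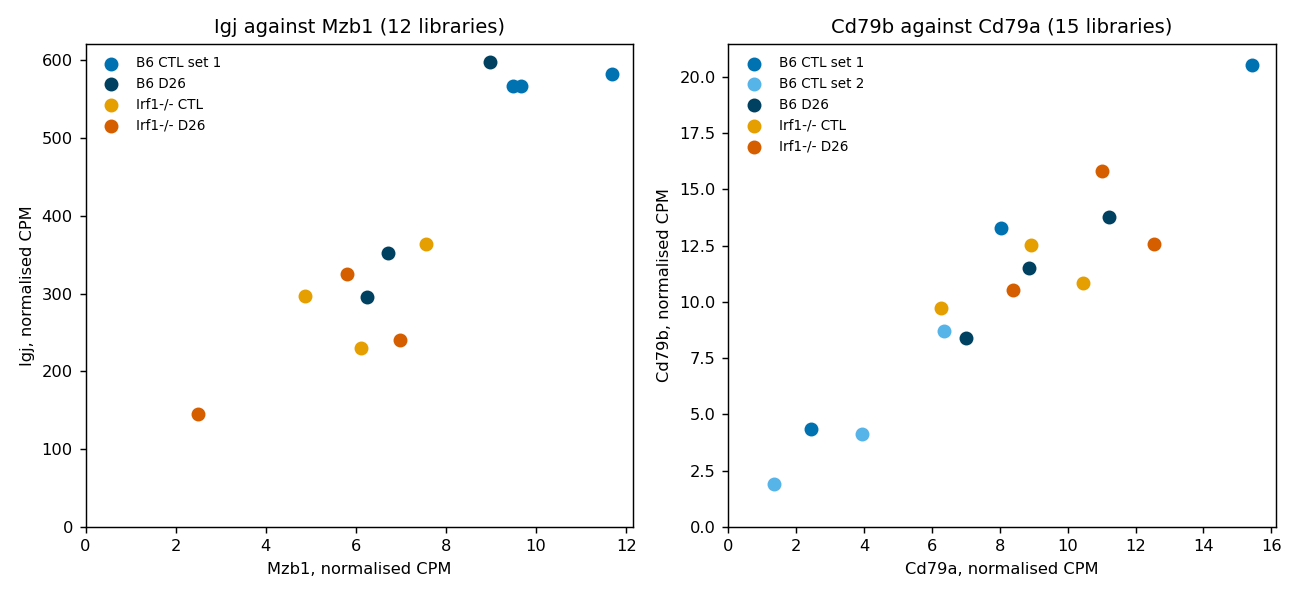
Normalised CPM of Igj against Mzb1 in 12 libraries (left) and of Cd79b against Cd79a in 15 libraries (right), with points coloured by group and linear axes from 0. Igj stood at 34.4 to 66.6 times Mzb1 and Cd79b at 1.00 to 1.78 times Cd79a, and control set 2 is absent from the left panel.

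The ratio within the plasma cell pair, and that within the B cell pair, varied less between libraries than the genes themselves. Igj over Mzb1 was 52.5 ± 9.56 (SD) over 12 libraries, with group means from 48.9 to 56.1 and single libraries from 34.4 to 66.6. Control set 2, which had the lowest mean of Igj, has no Mzb1 values and is not part of this ratio. Cd79b over Cd79a was 1.34 ± 0.22 (SD) over 15 libraries, with group means from 1.23 to 1.59. On the log2 scale, Igj and Mzb1 correlated at r = 0.896 (Pearson) and rho = 0.818 (Spearman) over 12 libraries, and Cd79a and Cd79b at 0.966 and 0.896 over 15. After subtraction of group means the r values were 0.756 and 0.962. Between the pairs, Igj was at r = 0.128 and rho = 0.246 with Cd79a and at r = 0.254 and rho = 0.400 with Cd79b over 15 libraries, and Mzb1 was at r = -0.034 and rho = 0.042 with Cd79a and at r = 0.112 and rho = 0.343 with Cd79b over 12. After subtraction of group means these r values were 0.014, 0.043, 0.344 and 0.365. All of these values are descriptions, since the points share libraries and depth and each gene was scaled by the same total.

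The B cell receptor genes varied most within the untreated B6 mice. Cd79a was at 15.4, 8.05 and 2.44 normalised CPM in control set 1 and at 3.94, 6.34 and 1.34 in control set 2, counts of 351, 183 and 55 and of 88, 143 and 30 reads. Cd79b was at 20.5, 13.3 and 4.34 in control set 1 and at 4.12, 8.69 and 1.92 in control set 2. The libraries of both control sets overlapped for both genes, and replicate 3 was the lowest of each set. The 3 other groups were narrower. Cd79a averaged 8.54 ± 2.12 in untreated mutants, 9.03 ± 2.11 in treated B6 mice and 10.6 ± 2.11 in treated mutants (SD, n = 3), and Cd79b averaged 11.03 ± 1.41, 11.2 ± 2.70 and 12.95 ± 2.67. Neither gene passed the test after treatment. In B6 mice the log2 fold changes were 0.07 ± 0.50 for Cd79a and -0.17 ± 0.44 for Cd79b (adjusted p = 0.934 and 0.818, edgeR). Against control set 2 they were 1.23 ± 0.42 and 1.205 ± 0.43 (adjusted p = 0.0749 and 0.0834, edgeR), again not called. In mutants they were 0.32 ± 0.21 and 0.23 ± 0.17 (adjusted p = 0.476 and 0.515, edgeR). The 95% intervals in B6 mice against set 1, from -1.06 to 1.21 and from -1.17 to 0.83, leave room for a fold change past the threshold in either direction.

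Estimates for the list of B cell genes depended on the control set, as those for Cd79a and Cd79b did. Of 24 listed B cell genes, 13 were tested against control set 2 at steady state and 12 had a positive estimate in mutants, with a median log2 fold change of 0.70 against 0.00191 over all genes, although 0 were called by edgeR or by DESeq2 (6 at an unadjusted p under 0.05). The smallest p values belonged to Cd22, an inhibitory receptor of B cells (0.64 ± 0.17, adjusted p = 0.162, edgeR), and Pou2af1, a B cell coactivator (0.70 ± 0.21, adjusted p = 0.230, edgeR). Between the control sets 0 of 13 estimates were positive and the median was -0.78, with 0 called by edgeR (2 at an unadjusted p under 0.05) and Pou2af1 called by DESeq2 as lower in set 2. Over all genes there, 2134 of 12417 were at an unadjusted p under 0.05, and DESeq2 called 144. With control set 1, 6 of 15 were positive at steady state and the median was -0.02. The summed level of the 13 genes was 89.5 to 245 normalised CPM in control set 1, 68.9 to 152 in set 2, 139.5 to 171 in untreated mutants, 132 to 166 in treated B6 mice and 163 to 208 in treated mutants. Pax5 and Blk, which define B cells, were in no table. The summed level of 5 lymphoid follicle stroma genes in all tables, of which Cr2 is also in the B cell list, was 50.0 to 166 in control set 1, 43.5 to 104 in set 2, 80.9 to 121 in untreated mutants, 72.7 to 124 in treated B6 mice and 130 to 137 in treated mutants. Cxcl13, the chemokine that draws B cells into follicles, averaged 6.26 ± 4.87 in control set 1, 3.67 ± 1.76 in set 2 and 10.2 ± 3.55 in treated mutants (SD, n = 3). The part of sampled follicles in the values of Cd79a and Cd79b was not tested.

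Between treated genotypes 13 of 15 B cell genes had a positive estimate in mutants, with a median of 0.34 against -0.00841 over all genes. Over all genes in that comparison, 2748 of 12483 were at an unadjusted p under 0.05, and DESeq2 called 270. None of the 15 was called by edgeR (7 at an unadjusted p under 0.05), and Ms4a1, the gene of CD20, came nearest (1.14 ± 0.22, adjusted p = 0.0432, edgeR), whereas DESeq2 called Ms4a1 and Bank1. Igj, at -0.82, and Mzb1, at -0.54, had estimates of the opposite sign in the same libraries. In the response of mutants, 16 of 18 B cell genes had positive estimates with a median of 0.32, and 0 were called by either tool (7 at an unadjusted p under 0.05). Over all genes there, 2361 of 12692 were at an unadjusted p under 0.05, and DESeq2 called 221. Of genes that signal downstream of the B cell receptor, 0 of 18 were called by edgeR in that response (9 at an unadjusted p under 0.05), with Lyn, a kinase also found in myeloid cells, at 0.42 ± 0.08 (adjusted p = 0.0412, edgeR). Pik3ap1, an adaptor of this pathway, was called there by DESeq2. Of 12 genes listed for macrophages and neutrophils, 2 were called in the response of mutants (0.252% of all genes were). They were Mpeg1 at 0.93 ± 0.07 and Lyz1 at 0.66 ± 0.08 (adjusted p = 0.00328 and 0.00772, edgeR). In mice Lyz1 is chiefly the lysozyme of Paneth cells, so it does not mark myeloid cells alone. Mpeg1 averaged 77.9 ± 6.08 normalised CPM in treated mutants and 77.0 ± 16.7 in treated B6 mice (SD, n = 3), where DESeq2 called it. Against control set 2, edgeR called 2 of the 12 genes in B6 mice (0.572% of all genes were). These were Mpeg1 at 1.19 ± 0.17 and Csf1r at 0.64 ± 0.08 (adjusted p = 0.00908 and 0.00753, edgeR).

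The wider plasma cell list had a median near 0 between control sets. Of its 15 tested genes 5 had an estimate above 0, the median log2 fold change was -0.08 against -0.00334 over all genes, 3 were at an unadjusted p under 0.05, and Igj was the only gene called by edgeR, while DESeq2 also called Irf4. Irf4, a transcription factor needed for plasma cell formation, averaged 19.8 ± 5.53 normalised CPM in control set 1 and 9.43 ± 1.95 in set 2 (SD, n = 3; log2 fold change -1.07 ± 0.21, adjusted p = 0.0568, edgeR). At steady state against set 2 it was 0.70 ± 0.17 (adjusted p = 0.102, edgeR), where DESeq2 called it. Prdm1, which encodes Blimp-1 and is also expressed by epithelial cells, averaged 8.87 ± 1.92 in control set 1, 6.92 ± 1.48 in set 2 and 13.3 ± 2.43 in treated B6 mice. Sdc1, the plasma cell marker CD138 that epithelial cells also express, was at 197 to 296 normalised CPM in every library. Tnfrsf17 and Tnfrsf13b, receptors for plasma cell survival factors, were in no table, and no immunoglobulin heavy or light chain gene was found in the tables.

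Xbp1 differed little between groups. It was at 158.1, 176.5 and 193 normalised CPM in control set 1, at 163, 166.5 and 185.6 in set 2 and at 160.5, 192.1 and 184.7 in untreated mutants. After AOM/DSS it was at 197, 236.3 and 201 in B6 mice, above each of the 9 untreated libraries, and at 229.4, 186.2 and 183.7 in mutants, which overlapped them. The log2 fold change in B6 mice was 0.27 ± 0.10 (SE, adjusted p = 0.123, edgeR) against control set 1 and 0.31 ± 0.10 (adjusted p = 0.0601, edgeR) against control set 2, both below a fold change of 1.5 and neither called. After a GC correction the estimate against set 1 was 0.17 ± 0.11 (adjusted p = 0.434, edgeR). In mutants it was 0.16 ± 0.11 (adjusted p = 0.470, edgeR). The tables count whole genes, so the spliced form of Xbp1 that encodes the active factor was not measured.

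Genes of the unfolded protein response and of folding in the endoplasmic reticulum were tested as a list of 34, all of them in the tables. In B6 mice after treatment 28 of 34 estimates were positive with a median of 0.24 against 0.0120 over all genes, and 0 were called by edgeR. At an unadjusted p under 0.05 were 16 of 34, against 3730 of 12643 genes. Ddit3, a factor of prolonged stress, was at 0.67 ± 0.12 (adjusted p = 0.0220, edgeR) and Syvn1, a ligase that marks misfolded proteins, at 0.47 ± 0.09 (adjusted p = 0.0228, edgeR). DESeq2 called Ddit3, Manf and Hyou1, 3 of 34, where it called 441 of 12643 genes. Against control set 2 the median was 0.08, with 25 of 34 positive and 0 called by edgeR. At an unadjusted p under 0.05 were 7 of 34, against 4157 of 12417 genes. In mutants 26 of 34 estimates were positive with a median of 0.10 (0 called by either tool, 4 at an unadjusted p under 0.05). Between control sets, where Igj was lower in set 2, 28 of 34 estimates were higher in set 2, with a median of 0.19 (0 called by edgeR, 12 at an unadjusted p under 0.05, and Pdia6 called by DESeq2). Genes of protein translocation and export gave medians of 0.12 between control sets and 0.10 in treated B6 mice, with 0 of 33 called by either tool (8 and 10 at an unadjusted p under 0.05), and treated B6 mice against control set 2 gave 0.02. The libraries of treated B6 mice are also those with the steeper GC slope, and its part in the values of these lists was not tested.

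Pigr, the transport receptor, varied little. It was at 4054, 3630 and 3023 normalised CPM in untreated Irf1-/- mutants, at 3744, 2977 and 3917 in treated B6 mice and at 3226, 4015 and 3682 in treated mutants, ranges that overlapped each other and both control sets. Against control set 2 the log2 fold change of untreated mutants was 0.03 ± 0.12 (SE, adjusted p = 0.965, edgeR), with a 95% interval from -0.23 to 0.29. Treated mutants over treated B6 mice gave 0.02 ± 0.13 (adjusted p = 0.947, edgeR; interval -0.28 to 0.32). The response was -0.17 ± 0.12 in B6 mice (adjusted p = 0.365, edgeR; interval -0.44 to 0.10) and 0.03 ± 0.12 in mutants (adjusted p = 0.928, edgeR; interval -0.24 to 0.30). All of these intervals lie within a fold change of 1.5 in either direction, though intervals from 3 libraries a group do not exclude a larger change. Against control set 1 the steady state estimate furthest from 0 with 1 library left out was -0.27 (interval -0.51 to -0.04), without untreated Irf1-/- replicate 1. Pigr over Igj, a ratio of receptor to cargo transcripts, nevertheless ran from 4.98 to 25.3 between libraries, with most of that range from Igj.

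Among listed regulators of Pigr, Irf1 and Usf1 had the smallest p between treated genotypes, and between untreated ones against control set 2. Against control set 1 the smallest p belonged to Il17rc (-0.44 ± 0.06, adjusted p = 0.00206, edgeR) and Irf1 (-0.70 ± 0.12, adjusted p = 0.0102, edgeR), neither called there. Irf1 is the gene inactivated in the mutants, so its lower level there follows from the design. Irf1, which acts on Pigr downstream of interferon, was at a log2 fold change of 0.45 ± 0.11 in treated B6 mice (SE, adjusted p = 0.0449, edgeR, not called) and was lower by genotype, at -0.49 ± 0.12 untreated against control set 2 (adjusted p = 0.128, edgeR) and at -0.93 ± 0.13 treated (adjusted p = 0.0117, edgeR). Usf1, whose product binds the E-box printed in capitals above, was at 35.5 ± 0.17 normalised CPM in untreated mutants and 41.8 ± 0.94 in control set 2 (SD, n = 3; log2 fold change -0.23 ± 0.06, adjusted p = 0.144, edgeR). In treated mutants it was at 33.1 ± 2.70 against 50.05 ± 1.82 in treated B6 mice (-0.61 ± 0.09, adjusted p = 0.0147, edgeR). Neither gene was called by edgeR, while DESeq2 called both, and Il17rc, as lower in treated mutants. Of the 19 regulators tested, Irf1 included, 17 had estimates at or below 0 in treated mutants, with a median of -0.18 against -0.00841 over all genes. By edgeR 0 were called, and 8, Irf1 among them, were at an unadjusted p under 0.05, against 2748 of 12483 genes. Pigr itself was at 0.02 in the same comparison. Epithelial marker genes also had estimates below 0 there in 12 of 13 cases, with a median of -0.23 (0 called by either tool, 7 at an unadjusted p under 0.05), and their part in the values of the regulators was not tested. Treated B6 libraries are also those with the steeper GC slope, and its part in these estimates was not tested either. Among transcytosis and immunoglobulin receptor genes, 1 of 21 was called in the mutant response (0.252% of all genes were), Fcgr2b, the inhibitory IgG receptor of B and myeloid cells (0.87 ± 0.11, adjusted p = 0.00901, edgeR). It averaged 23.4 ± 2.33 normalised CPM in treated mutants and 23.2 ± 5.96 in treated B6 mice (SD, n = 3), where DESeq2 called it.

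Genes that induce IgA or guide plasma cells to the gut were partly covered, with 20 of 37 in the tables and Ccl28, Ccr10 and Madcam1 in none. Aldh1a3, an enzyme of retinoic acid synthesis, was the only gene of the list called by edgeR in any main comparison. It averaged 10.9 ± 2.69 normalised CPM in untreated mutants and 50.3 ± 6.67 in treated ones (log2 fold change 2.21 ± 0.17, adjusted p = 0.00328, edgeR). In B6 mice it averaged 8.97 ± 1.54 in control set 1 and 34.9 ± 12.1 after treatment (1.97 ± 0.24, adjusted p = 0.0122, edgeR), which DESeq2 called. Against control set 2 the response of Aldh1a3 in B6 mice was called by edgeR as well (1.67 ± 0.24, adjusted p = 0.00988, edgeR). Tnfsf13b, which encodes the B cell survival factor BAFF, averaged 6.87 ± 1.29 in treated mutants and 11.2 ± 0.62 in treated B6 mice (-0.72 ± 0.17, adjusted p = 0.0644, edgeR), and DESeq2 called it as lower in mutants.

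Counted over the members, 0 of 6 were called by edgeR in the B6 response (0.0475% of all genes were), 0 of 6 in the Irf1-/- response (0.252%) and 0 of 6 between treated genotypes (0.385%), and DESeq2 called 0 in each. Over all genes, DESeq2 called 441, 221 and 270, where edgeR called 6, 32 and 48. With so few genes called by edgeR, 0 calls among the members do not show that they were unchanged. At an unadjusted p under 0.05 there were 2 members in the B6 response, 0 in the Irf1-/- response and 1 between treated genotypes. In the same order, 3730 of 12643, 2361 of 12692 and 2748 of 12483 genes were at such a p. Libraries did not overlap for 2 of 6 members in the B6 response, Mzb1 lower and Xbp1 higher, against 34.5% of all genes. They overlapped for all 6 members in the Irf1-/- response and between treated genotypes, where 25.1% and 28.1% of all genes did not overlap. With control set 2 in place of set 1, libraries of treated B6 mice did not overlap for Igj, Cd79a and Xbp1, 3 of 5 members, all higher, against 38.6% of all genes (20.1% higher). There 0 of 5 were called by edgeR (0.572% of all genes), with 4 at an unadjusted p under 0.05, against 4157 of 12417 genes. The difference between the responses was tested directly, and 0 of 6 members were called by edgeR or DESeq2 (0.016% of all genes by edgeR), with 0 at an unadjusted p under 0.05. Its estimates ran from -0.11 for Xbp1 to 0.41 for Cd79b (smallest adjusted p = 0.596, edgeR). For Igj the difference was 0.13 ± 0.39 with control set 1 and -1.25 ± 0.40 with control set 2 (adjusted p = 0.194, edgeR).

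**Figure D4:**
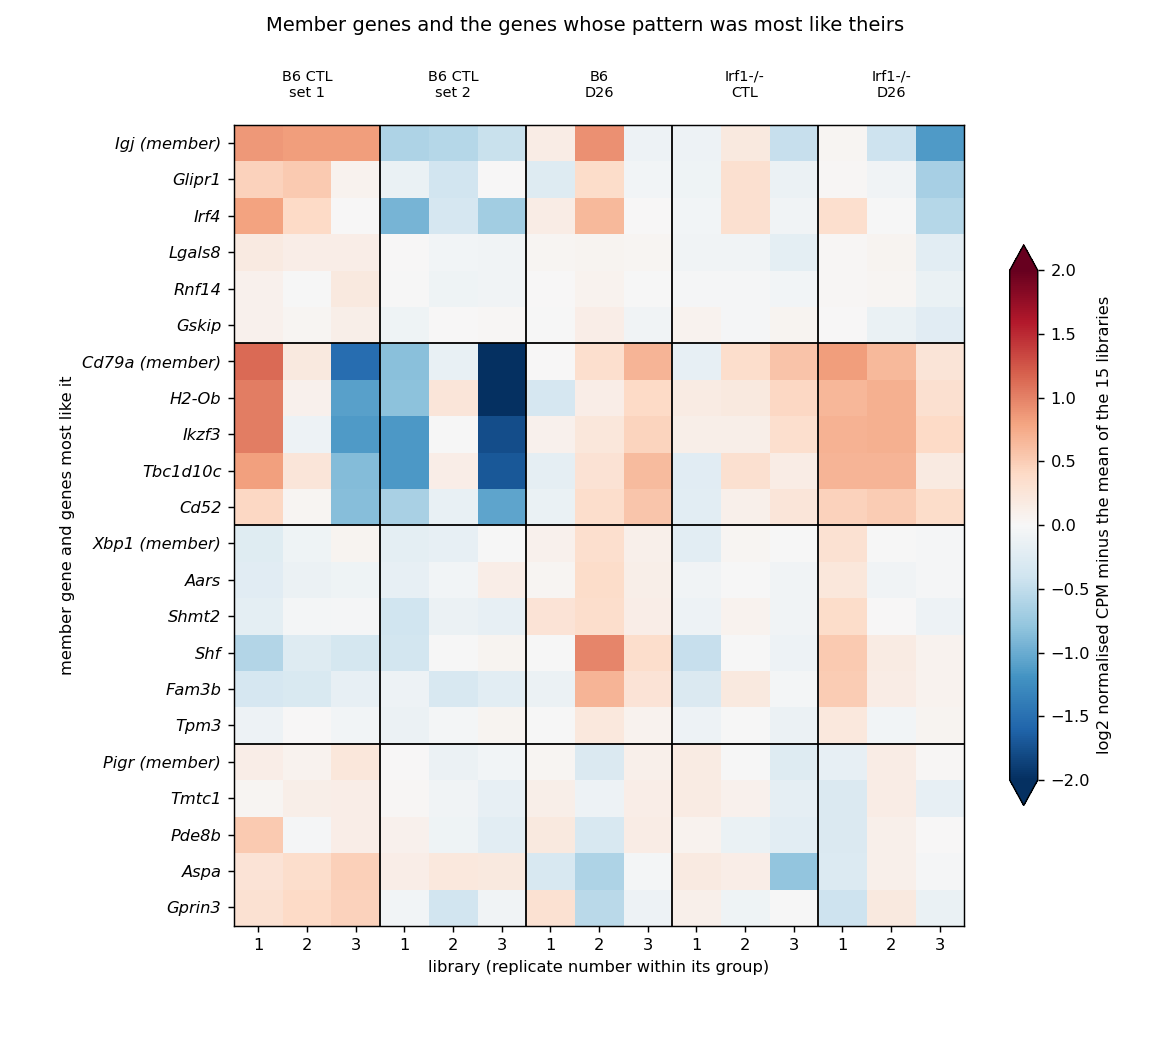
Colours show log2 normalised CPM minus the mean of 15 libraries for 4 member genes and the 4 or 5 genes given as most like each, with libraries in columns by group. The Cd79a block is high in control set 1 replicate 1 and low in replicate 3 of both control sets, whereas the Igj block is mostly high in control set 1 and in treated B6 replicate 2.

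Genes whose pattern over the 15 libraries was most like that of a member were taken as those with the highest Pearson's r of log2 normalised CPM. Of the 5 highest, 4 or 5 are given for each member. For Igj these were Glipr1 (r = 0.846), Irf4 (0.815), Lgals8 (0.794), Rnf14 (0.770) and Gskip (0.765). For Cd79a they were H2-Ob (0.970), Ikzf3 (0.966), Tbc1d10c (0.958) and Cd52 (0.955), of which Ikzf3 is a lymphoid transcription factor and H2-Ob a subunit of an antigen presentation regulator in B cells. For Xbp1 they were Aars (0.882), an alanyl-tRNA synthetase, Shmt2 (0.881), a mitochondrial serine enzyme, Shf (0.879), Fam3b (0.872) and Tpm3 (0.867). The highest r was lowest for Pigr, which also varied least, with Tmtc1 at 0.792, Pde8b at 0.772, Aspa at 0.770 and Gprin3 at 0.759. Igj and Cd79a had no gene in common among these, which follows from the low r between them (0.128) and adds nothing to it.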

How the data were processed

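RNA-seq was analysed from 15 colon libraries, rRNA-depleted, stranded and read as 50 bp pairs. The authors deposited read counts per gene in 3 tables, keeping genes at 5 CPM or more in at least 3 libraries. Per the labels, mm9, TopHat2 2.0.9, Bowtie 1.0.0, featureCounts and edgeR were named for the processing. The deposited CPM columns were used only for the library totals of 1 alternative. The deposited log2 fold changes, the log2 CPM, the p-values and adjusted p-values, and the score of tagwise dispersion belong to the authors' own comparisons and were not used.

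Members and gene lists were chosen with earlier results of these data known. Counts were fitted with edgeR 4.0.16 (R 4.3.3), TMM factors and quasi-likelihood tests of group means, checked on simulated data, over 12588 genes for untreated genotypes, 12643 for B6 mice, 12692 for mutants, 12483 for treated genotypes and the response difference, and 12417 between control sets. SE is the log2 fold change over the root of F. Named list genes were up to 4 called genes by p, or the 2 with the smallest p, and others were named after their values were seen. Likeness used a prior count of 2. Some genes of the lists and of the likeness ranking are not reported here. Transcript length and GC content came from GENCODE M21 for 12788 of 12897 genes, and promoters from RefSeq, which held those of Igj, Pigr, Cd79a, Derl3 and Xbp1. Alternatives were RLE factors, DESeq2 1.42.0, 10 CPM in 3 libraries, all libraries in 1 fit, a replicate block, a lowess GC correction (span 0.3), the other or both control sets, an adjusted p under 0.05 and each library left out. Effective totals from the CPM columns, and leaving out the 3 libraries under 100 CPM of Xist, were chosen after seeing the data. No library was a copy of another: within groups, chi-square over degrees of freedom was 8.65 to 42.7 between libraries. Python 3.11.15, numpy 2.4.6, pandas 2.3.3 and matplotlib 3.10.9 were used.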

Additional observations from a re-analysis of the deposited data

How the results depend on the processing

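Of 587 alternative values for 34 member fold changes, 538 kept their direction and their side of the threshold, 46 changed sign, 2 passed the threshold newly and 1 fell below it. Counts of members called moved under 4 settings. With the other control set 1 member was called at steady state, and without treated B6 replicate 2, or without the libraries low in Xist, 1 was called in the B6 response, Igj each time. With all 15 libraries in 1 fit 0 were called between control sets, by the larger spread of the other groups (Igj -1.39, adjusted p = 0.0322, edgeR).

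With the other control set, log2 fold changes that changed sign at steady state were -0.95 for Igj, -0.17 for Pigr, -0.0179 for Cd79a and -0.21 for Cd79b. In the B6 response they were 0.94 for Igj, 0.0354 for Pigr and 1.205 for Cd79b, and in the response difference -1.25 for Igj, -0.90 for Cd79a and -0.96 for Cd79b. With both control sets together they were -0.41 for Igj and -0.0758 for Pigr at steady state, 0.0797 for Igj and 0.36 for Cd79b in the B6 response, and -0.40 for Igj, -0.21 for Cd79a and -0.11 for Cd79b in the response difference. The GC correction gave -0.0615 for Cd79a in the B6 response, 3.59e-05 for Xbp1 between treated genotypes and -0.15 for Igj in the response difference, or -0.13 with the replicate block as well. Without the libraries low in Xist, values were 0.13 for Cd79b in the B6 response, -0.0381 for Pigr, -0.22 for Cd79a and -0.0763 for Cd79b between treated genotypes, and -0.19 for Cd79a in the response difference. For these, the cause was not tested.

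With 1 library left out, ranges that crossed 0 were -0.0714 to 0.14 for Pigr at steady state, -0.36 to 0.80 for Cd79a and -0.57 to 0.37 for Cd79b in the B6 response, -0.0762 to 0.13 for Pigr and -0.58 to 0.0497 for Mzb1 in the Irf1-/- response, -0.0843 to 0.11 for Pigr between treated genotypes and -0.10 to 0.0414 for Xbp1 between control sets. In the response difference they were -0.18 to 0.49 for Igj, -0.47 to 0.69 for Cd79a, -0.12 to 0.81 for Cd79b and -0.0845 to 0.53 for Mzb1. Counts of members called with 1 library left out ran from 0 to 1 in the B6 response. Same-numbered libraries did not deviate together (r from -0.22 to 0.25), so numbers were not taken as pairs. The replicate block changed no member's call and gave 0.0067 for Cd79b in the B6 response.

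Calls over all genes, which set the background, moved more. The edgeR fit called 51 genes at steady state (26 to 157 over alternatives), 6 in the B6 response (0 to 1070), 32 in the Irf1-/- response (0 to 301), 48 between treated genotypes (7 to 270), 8 between control sets (3 to 144) and 2 for the response difference (0 to 75). In the same order, DESeq2 called 107, 441, 221, 270, 144 and 75 genes. By edgeR, 1313, 3730, 2361, 2748, 2134 and 2108 genes had an unadjusted p under 0.05. Cd79a, Cd79b and Mzb1 rested on 30 to 467 reads a library, against at least 3267 for Igj, so their values carry more counting error.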
